A study of Mus musculus with 12 samples.

Results

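Broad accessible domains are the widest stretches of open chromatin in 6 lists of accessible domains, made by ATAC-seq along the differentiation of mouse embryonic stem cells into motor neurons. They were selected on their width alone: every domain of 1500 bp or more and under 10000 bp on chromosomes 1 to 19, X and Y. By that rule 8019 of 482514 domains were broad, 637 of 94875 in embryoid bodies (EB), 1585 of 87916 in progenitors, 2769 of 88806 at day 4 without doxycycline (no Dox), 1332 of 91181 in iHoxc6, 665 of 63504 in iHoxc9 and 1031 of 56232 in iHoxc10. Widths are therefore described here without a test.

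The 12 samples fell into 6 groups of 2, and each group has 1 list made from both of its samples. EB had not been patterned, and progenitors had received retinoic acid (RA, 1 µM) and the Hedgehog agonist SAG (0.5 µM) for 2 days; both came from the line Ainv15(iCre). The other 4 groups had RA and SAG for 4 days. Cells labelled iHoxc6, iHoxc9 and iHoxc10 came from the lines Ainv15(iFlag.Hoxc6), Ainv15(iFlag.Hoxc9) and Ainv15(iFlag.Hoxc10), in which 1 copy of a Flag-tagged Hox transgene at the Hprt locus was switched on by doxycycline (Dox, 3 µg/mL) over the last 48 h. The no Dox control was of the Ainv15(iFlag.Hoxc6) line and received no Dox. Each induced group came from a line of its own, so a difference between induced lists cannot be told apart from a difference between lines. The same holds for EB or progenitors against any day 4 list, and for no Dox against iHoxc9 or iHoxc10. Only EB with progenitors, and no Dox with iHoxc6, shared a line. The no Dox list stood apart in its form: it had 6 columns and the others 3, it held no mitochondrial domain where the other 5 lists each held 1, and its sample records were added later. Its name gives another day than its labels and a threshold that the other names lack, and neighbouring domains lay closer in it, with 36 gaps narrower than any in EB and the 3 induced lists, so different calling parameters are possible and no source here settles this. Closing such gaps first changed its number of broad domains from 2769 to 2775. What these differences contributed to its larger number of broad domains was not tested. With 1 list per group and no read counts, there is no replicate error and no test for any value below, read depth is unknown, and the intervals given are 95% Wilson intervals that cover the counting of domains only.

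In ATAC-seq a transposase inserts sequencing adapters where DNA is not wrapped around nucleosomes or otherwise covered. Most open sites are a few nucleosomes wide at most and lie at enhancers, whereas long open stretches are typical of promoters in CpG islands, where the CpG dinucleotide escapes the loss seen in the rest of the genome. During motor neuron differentiation RA gives the cells a spinal identity and opens the anterior genes of the Hox clusters, Hedgehog signalling selects ventral progenitors, and Notch signalling governs when they become neurons. Hox proteins then divide motor neurons along the body axis, HOXC6 at brachial, HOXC9 at thoracic and HOXC10 at lumbar levels.

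Stretches of 200 bp from 5 broad places show the sequence under them. In each place the window with the most CpG that overlaps no annotated exon is given, from the + strand of GRCm38 with every CG in capitals. Jun was broad in all 6 lists, Marcks had the widest no Dox domain on single-copy sequence, Ptch1 was among the widest of the progenitor list, Hoxa4 stands for the Hox genes, and the intergenic place on chromosome 13 had no domain in EB.
Jun, chr4:95052556-95052755: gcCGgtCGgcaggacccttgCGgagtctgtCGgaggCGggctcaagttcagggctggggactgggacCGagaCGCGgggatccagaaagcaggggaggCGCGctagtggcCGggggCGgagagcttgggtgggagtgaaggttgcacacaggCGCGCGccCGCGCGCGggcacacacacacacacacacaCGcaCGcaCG
Marcks, chr10:37136971-37137170: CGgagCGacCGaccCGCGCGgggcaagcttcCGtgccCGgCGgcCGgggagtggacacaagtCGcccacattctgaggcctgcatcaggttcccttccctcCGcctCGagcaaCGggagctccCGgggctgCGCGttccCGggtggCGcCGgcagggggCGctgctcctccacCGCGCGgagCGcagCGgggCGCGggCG
Ptch1, chr13:63565747-63565946: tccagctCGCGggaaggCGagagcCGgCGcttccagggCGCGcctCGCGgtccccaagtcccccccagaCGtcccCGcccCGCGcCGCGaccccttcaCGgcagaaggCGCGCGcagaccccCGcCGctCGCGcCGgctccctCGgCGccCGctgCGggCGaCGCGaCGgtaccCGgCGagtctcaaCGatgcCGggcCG
Hoxa4, chr6:52191798-52191997: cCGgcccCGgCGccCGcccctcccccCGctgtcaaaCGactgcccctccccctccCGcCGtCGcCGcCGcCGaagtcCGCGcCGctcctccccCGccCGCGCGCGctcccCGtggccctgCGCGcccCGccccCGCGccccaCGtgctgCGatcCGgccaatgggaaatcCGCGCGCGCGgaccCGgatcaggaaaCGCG
Intergenic, chr13:78872234-78872433: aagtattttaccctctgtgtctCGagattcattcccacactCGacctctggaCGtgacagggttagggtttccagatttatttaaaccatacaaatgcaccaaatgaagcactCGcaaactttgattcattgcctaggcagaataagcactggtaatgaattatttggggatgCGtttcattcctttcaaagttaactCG
The windows held 22, 29, 37, 37 and 6 CG, in that order. All 4 genes run on the − strand. Relative to the 5′ end of the gene record, the middle of the window lay 434 bp upstream in Jun and 145 bp upstream in Hoxa4, and 1849 bp downstream in Marcks and 7751 bp downstream in Ptch1, whose broad place covers a later start site. The intergenic stretch differs from the other 4 in holding few CG.

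Broad domains were rare in every list, but their share differed between lists. They were 0.671% of the domains in EB (0.621 to 0.725), 1.80% in progenitors (1.72 to 1.89), 3.12% in no Dox (3.01 to 3.23), and 1.46% in iHoxc6 (1.39 to 1.54), while iHoxc9 had 1.05% (0.971 to 1.13) and iHoxc10 1.83% (1.73 to 1.95). Since they are long, they held 5.03% of the accessible bases in EB, 11.7% in progenitors, 18.1% in no Dox and 10.1%, 6.89% and 9.57% in the lists of iHoxc6, iHoxc9 and iHoxc10. The median width of a broad domain was nearly the same in all lists, from 1707 bp in EB to 1795 bp in no Dox, and most domains lay close to the lower bound. At 3000 bp or more there were 11 in EB, 42 in progenitors, 106 in no Dox, and iHoxc6, iHoxc9 and iHoxc10 had 34, 15 and 24. On either side of the bound, the EB list held a domain of 1500 bp at a Prkch start and one that was 1 bp narrower at an Eif5 start, and the no Dox list a domain of 1500 bp at Ryr2 and one that was 1 bp narrower at Qpctl. In every list the nearest domains on either side of the bound differed from it by at most 2 bp, so that the bound cuts through a run of like domains.

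**Figure D1:**
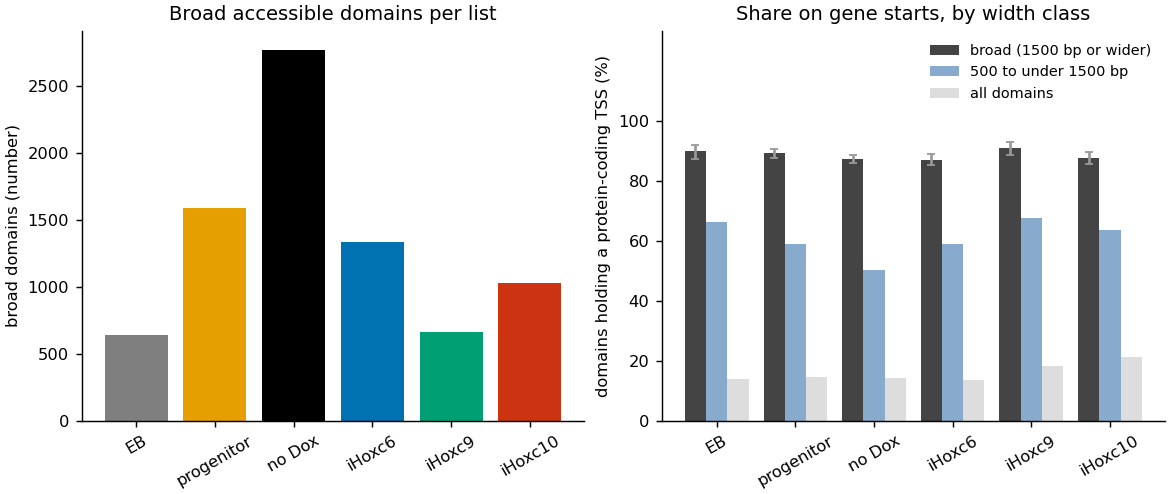
Left, number of broad domains in each of the 6 lists; right, percent of domains that hold the transcription start site (TSS) of a protein-coding transcript, for broad domains (error bars, 95% Wilson interval), domains of 500 bp to under 1500 bp and all domains. No Dox has the most broad domains, 2769, and in all 6 lists the broad domains lie on gene starts more often than the narrower ones.

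Nearly all broad domains lay on gene starts. The TSS of a protein-coding transcript was inside 89.9% of the broad domains in EB, 89.3% in progenitors, 87.4% in no Dox and 87.2%, 91.0% and 87.7% in the lists of iHoxc6, iHoxc9 and iHoxc10. Among domains of intermediate width, 500 bp or more and under 1500 bp, the share was 50.4% in no Dox and 67.7% in iHoxc9, with the other lists in between, and among all domains it was 13.7% in iHoxc6 to 21.1% in iHoxc10. The 6 lists therefore differed more in how many domains were broad than in the share of these on gene starts. Measured from the 5′ end of the gene record, broad domains reached farther downstream than upstream. That end is the outermost start of the gene, so any other start lies downstream of it and favours that side. What such starts contributed was not tested. Where a domain held 1 protein-coding gene and its 5′ end, it extended a median of 1082 bp (iHoxc9) to 1124 bp (no Dox) downstream and 633 bp (EB) to 697 bp (no Dox) upstream. The downstream side was the longer one in 70.2% (iHoxc10) to 74.6% (no Dox) of them, and in 71.96% (EB) to 75.7% (no Dox) of the gene-start domains of intermediate width, so this lean was shared by both classes.

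The sequence under broad promoter domains was rich in CpG. Their median was 89.7 CpG per kb in EB, 83.8 in progenitors, 75.1 in no Dox, and 84.6, 90.1 and 88.7 in the lists of iHoxc6, iHoxc9 and iHoxc10, against 81.7, 75.2, 68.7, 78.1, 83.9 and 80.3 for promoter domains of intermediate width in the same lists. The difference of the medians was small beside the spread, since in no Dox the central 80% of broad promoter domains ran from 49.4 to 104 CpG per kb and that of the narrower ones from 41.0 to 102.5. An observed-to-expected CpG ratio of 0.6 or more, a usual mark of a CpG island, was found in 90.8% (no Dox) to 97.0% (iHoxc9) of broad promoter domains and in 81.5% (no Dox) to 89.8% (iHoxc9) of promoter domains of intermediate width. In domains off promoters, which held no protein-coding TSS, the medians were lower, from 32.1 CpG per kb in no Dox to 53.8 in EB. They were still above the 15.8 (no Dox) to 27.6 (EB) of narrower domains off promoters.

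**Figure D2:**
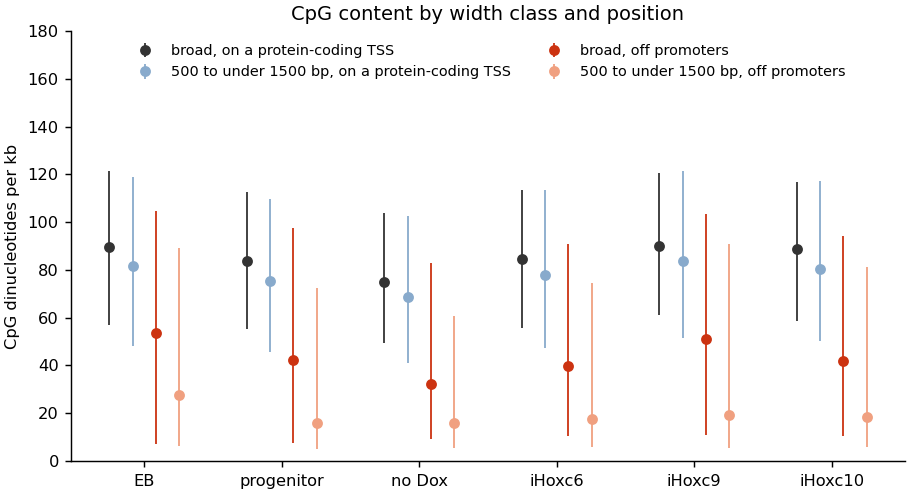
CpG dinucleotides per kb for broad domains and domains of 500 bp to under 1500 bp, on and off protein-coding TSS, in each list; points are medians and lines run from the 10th to the 90th percentile of domains. Broad domains have the higher median in both positions, and the ranges overlap widely at gene starts.

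Overlapping broad domains of the 6 lists were merged into 3198 places, which covered 6.32 Mb and had a median width of 1823 bp. Of these, 2751 (86.0%, 84.8 to 87.2) held a protein-coding TSS; among the 218562 regions merged in the same way from domains of any width, 6.53% did. The places off promoters numbered 447, with 198 on an exon, 105 inside introns and 144 between genes. They lay a median of 23.2 kb from the nearest protein-coding TSS, and 156 of them within 10 kb. Off promoters means only that no protein-coding TSS was inside. Of the 447, 139 held the start of another annotated transcript, such as that of a non-coding gene. Of the promoter places, 342 held genes on both strands.

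A place that was broad in 1 list was rarely closed in another. A domain of some width was present in all 6 lists at 3113 places (97.3%, 96.7 to 97.9), against 11.2% of the regions merged from domains of any width, most of which are far shorter. At promoters it was 2747 of 2751 places, and off promoters 366 of 447 (81.9%). With at least 50% of the place covered in every list the share was 64.4%, so the lists differed mostly in how far an open place extended and in whether it was in 1 piece. Across the lists, 283 places were broad in all 6, 259 in 5, 344 in 4, 367 in 3, 592 in 2 and 1353 in 1. At promoter places the median CpG per kb was 68.7 for those broad in 1 list, 72.6 in 2, 75.6 in 3, 74.3 in 4, 78.1 in 5 and 84.7 in all 6. Of the 1106 promoter places broad in 1 list, 862 were those of no Dox, the list with the lowest median at broad promoter domains (75.1). What this list contributed to the rise was not tested.

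**Figure D3:**
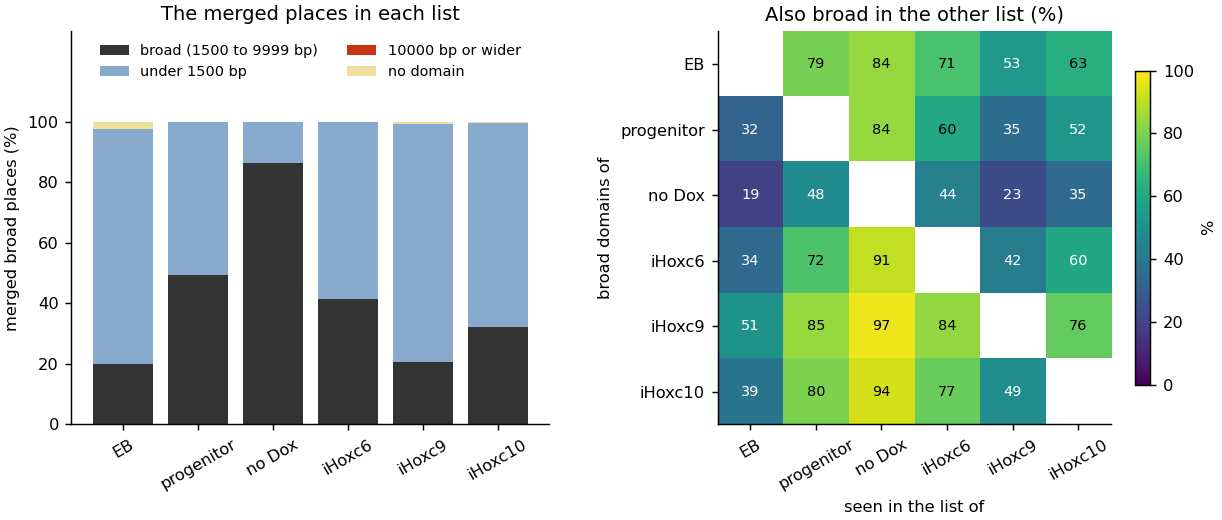
Left, the 3198 merged places by their state in each list (broad, covered only by domains under 1500 bp, under a domain of 10000 bp or wider, or without a domain), in percent; right, percent of the broad domains of the list in each row that overlap a broad domain of the list in each column. The no Dox column is high throughout, from 84.2% for progenitors to 97.3% for iHoxc9, and the EB column is low.

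The broad domains of the smaller lists were largely contained in those of no Dox. The no Dox list held a broad domain over 97.3% of those of iHoxc9, 93.6% of iHoxc10, 90.9% of iHoxc6, 84.3% of EB and 84.2% of progenitors. The reverse was true of 19.4% with EB, 23.3% with iHoxc9, 34.8% with iHoxc10, 43.7% with iHoxc6 and 48.2% with progenitors. Places broad in no Dox were still a median of 66.5% covered in EB, 68.1% in iHoxc9, 75.7% in iHoxc10, 80.8% in iHoxc6 and 83.1% in progenitors, and 49, 4, 3, 0 and 3 of the 2769 had no domain there. Often the narrower list broke the stretch up: 36.9% of no Dox broad domains overlapped 2 or more domains in EB and 25.6% did so in progenitors. Because the lists differ in number, the 637 widest domains under 10000 bp of each were also compared. Their lower bound was then 2125 bp in no Dox and 1500 bp in EB. At equal number no Dox shared 58.4% of the domains of progenitors, 57.9% of iHoxc6, 54.8% of iHoxc10 and 50.2% of iHoxc9. Equal numbers make the overlap nearly the same in both directions, and no Dox domains under 2125 bp are left out. These values therefore cannot show whether 1 list is contained in another. By overlap at equal number, 63.7% of the iHoxc6 domains were shared with iHoxc10, the highest value of all pairs, and 37.7% of those of EB with no Dox, the lowest.

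Of the 10 places broad in all 6 lists with the largest median width, 5 lay at the starts of Jun, Brd2, the growth regulator gene Ing1, the adhesion receptor gene Adgrl2 and the imprinted neighbours Peg3 and Usp29. The other 5 were the ribosomal and mitochondrial-like places described at the end, the starts of Gm21738 and Ppp2r3d, and an intergenic place on chromosome 4. The widths that follow are of the widest domain of a list in the place, which could hold several. Jun, a member of the AP-1 family of immediate early factors, had domains of 2752 bp in EB, 2924 bp in progenitors, 3694 bp in no Dox, 3824 bp in iHoxc6, 3663 bp in iHoxc9 and 3620 bp in iHoxc10. The 4 day 4 lists were thus wider than EB and progenitors there. Brd2, which encodes a reader of acetylated histones, had 2184 bp in EB, 4787 bp in progenitors, 4894 bp in no Dox, 4265 bp in iHoxc6, 2047 bp in iHoxc9 and 4332 bp in iHoxc10, so that EB and iHoxc9 stood below the other 4. The Brd2 place was in 4 domains in EB and 2 in iHoxc9. These covered 70.1% and 74.1% of it, against 84.2% to 96.6% elsewhere. Ing1 had 1787 bp in EB and 3565 to 3898 bp in the other 5 lists. EB had 3 domains there, covering 79.6%, against 91.1% to 99.6% elsewhere. EB was also the narrowest at Peg3 and Usp29, with 1822 bp in EB and 3381 to 4042 bp elsewhere. There EB had 4 domains, covering 66.2%, against 85.1% to 100% elsewhere. At Adgrl2 EB had 2053 bp, progenitors 2397 bp and the day 4 lists 3346 to 3646 bp, with 80.3%, 92.6% and 93.1% to 99.5% covered. Over all 283 places the median width of the widest domain was 1813 bp in EB, 2033 bp in progenitors, 2259 bp in no Dox, 1992 bp in iHoxc6, 1840 bp in iHoxc9 and 1910 bp in iHoxc10, and no Dox was the widest at 188.

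Places broad in 1 list only were mostly those of no Dox: 1018, against 167 in progenitors, 67 in iHoxc6, 60 in EB, 34 in iHoxc10 and 7 in iHoxc9. The size of that list bears on this count. Among the 637 widest of each list, 112 places were broad only in no Dox, 79 in progenitors, 65 in iHoxc6, 180 in EB, 70 in iHoxc10 and 86 in iHoxc9, so that EB and not no Dox then had the most. With the no Dox list left out, the places broad in 1 list only numbered 412 in progenitors, 230 in iHoxc6, 84 in EB, 94 in iHoxc10 and 30 in iHoxc9. Most of the places broad only in no Dox were open elsewhere: 36 of the 1018 had no domain in some other list, and a median of 57.6% of the length was covered in EB and 60.3% to 73.1% in the other lists. The widest was an intergenic stretch of 3957 bp, 34.5 kb from Ccr1, followed by the starts of Tgif1 and Fosb. Tgif1, a homeodomain repressor of the RA and TGF-beta pathways, had 3358 bp in no Dox, 591 bp in EB, 1230 bp in progenitors, 1039 bp in iHoxc6, 464 bp in iHoxc9 and 568 bp in iHoxc10 as its widest domain. The widest of the places broad only in progenitors was at Gli1, with 3320 bp, followed by the start shared by Clcn2 and Polr2h with 2388 bp and Zfp217 with 2372 bp. The places broad only in EB were led by one on an exon of Crlf2, 2436 bp wide and without a domain in iHoxc9 and iHoxc10, one of 2236 bp 4.02 kb from Sox4, and the start of Foxe1, a forkhead gene of foregut derivatives, with 2196 bp.

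At 85 places some list had no domain at all, and 81 of these lay off promoters. The list without one was EB at 70 places, iHoxc9 at 19, iHoxc10 at 10, progenitors and iHoxc6 at 4 each and no Dox at 1. EB alone lacked a domain at 62. On chromosome 13, the intergenic place at 78870956 to 78873260, 671 kb from the nearest protein-coding TSS, that of Nr2f1, had none in EB and domains of 1694 bp in progenitors, 2030 bp in no Dox, 1820 bp in iHoxc6, 1607 bp in iHoxc9 and 2070 bp in iHoxc10. All 5 lists of cells treated with RA and SAG were thus broad at this place, where EB had nothing. The place in an intron of the long non-coding RNA gene Gm14064 on chromosome 2 behaved alike, with 2430, 2419, 2552, 854 and 2007 bp in the same order, though iHoxc9 fell below the bound. A place on Sox2ot, the long non-coding RNA gene that surrounds Sox2, had 2243 bp in no Dox. Its widest domain was 371 to 773 bp in the other 4 lists after EB. In Slit3 and at Hs3st5, places of 1687 and 1599 bp in no Dox had no domain in EB or progenitors. The opposite also occurred: the start of Pax7, a dorsal progenitor gene, was broad in EB only (1576 bp), had widest domains of 90 bp in progenitors and 234 bp in no Dox, and had none in the 3 induced lists. Htr1a, a serotonin receptor gene, had 1745 bp in EB and at most 287 bp elsewhere.

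Of 21853 protein-coding genes, 3088 (14.1%) had a TSS in a broad domain of at least 1 list and 302 in all 6. Among the 39 Hox genes 5 did, which is 12.8%: Hoxa2, Hoxa4, Hoxa5, Hoxb4 and Hoxc5, all of the anterior paralogue groups 2 to 5. By list, 0 of the 39 were broad in EB (2.94% of all protein-coding genes), 3 in progenitors (7.3%), 4 in no Dox (12.5%), and the iHoxc6 list had 4 (5.98%), that of iHoxc9 1 (3.2%) and that of iHoxc10 5 (4.73%). Over all Hox genes, a domain of any width held a TSS of 10 in EB, 18 in progenitors, 22 in no Dox, and of 18, 10 and 20 in the lists of iHoxc6, iHoxc9 and iHoxc10. These were 25.6%, 46.2%, 56.4%, 46.2%, 25.6% and 51.3% of the Hox genes, where those of all protein-coding genes ran from 55.0% in iHoxc9 to 60.8% in EB. At Hoxa4 no domain held a TSS in EB or iHoxc9, and the width was 1721 bp in progenitors, 1884 bp in no Dox, 1723 bp in iHoxc6 and 1996 bp in iHoxc10. The gap in iHoxc9 was a short one, because domains of 572 and 742 bp lay on the flanks of the start there. Hoxb4 also had none in EB and iHoxc9, with 1879 bp in progenitors, 1958 bp in no Dox, 1767 bp in iHoxc6 and 2224 bp in iHoxc10. Hoxa2 had none in EB, 1705 bp in progenitors, 1725 bp in no Dox, 1717 bp in iHoxc6, 923 bp in iHoxc9 and 2185 bp in iHoxc10. At these 3 genes iHoxc10 was the widest of the 6 lists although it had fewer broad domains than no Dox. By rank within its own list, Hoxb4 was the 125th widest domain of iHoxc10 and the 959th of no Dox, and Hoxa2 the 146th and the 1648th. At Hoxa5 the order was another, with 261 bp in EB, 1265 bp in progenitors, 2007 bp in no Dox, 1267 bp in iHoxc6, 1713 bp in iHoxc9 and 1949 bp in iHoxc10. Hoxc5, the neighbour of Hoxc6, has a long gene record, from 102967443 to 103017429 on chromosome 15. Widths of genes are of the widest domain at any of their starts, and that start could differ between lists. Hoxc5 had none in EB, 1089 bp in progenitors, 1493 bp in no Dox, 2079 bp in iHoxc6, 1460 bp in iHoxc9 and 1721 bp in iHoxc10, so that it was broad in iHoxc6 and iHoxc10 only. The transgene's own gene was not broad in any list: no start of Hoxc6 or Hoxc10 lay in a domain, and a Hoxc9 start lay in 1 domain of 33 bp, in iHoxc6.

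Of 19 genes of ventral progenitors, 10 were broad in some list (52.6%, against 14.1% of all protein-coding genes). By list these were 0 in EB, 7 in progenitors, 8 in no Dox, and 3, 0 and 2 in the iHoxc6, iHoxc9 and iHoxc10 lists. In that order they made up 0%, 36.8%, 42.1%, 15.8%, 0% and 10.5% of the 19. For all protein-coding genes the shares were 2.94%, 7.3%, 12.5%, 5.98%, 3.2% and 4.73%. The Hedgehog targets Ptch1 and Gli1 were widest in progenitors. Ptch1, the Hedgehog receptor, had 354 bp in EB, 3712 bp in progenitors, 2481 bp in no Dox, 2196 bp in iHoxc6, 1473 bp in iHoxc9 and 1700 bp in iHoxc10, and was the 14th widest domain of the progenitor list. Gli1, a transcription factor that Hedgehog signalling turns on, had 331 bp in EB, 3320 bp in progenitors, 770 bp in no Dox, 595 bp in iHoxc6, none at its starts in iHoxc9 and 899 bp in iHoxc10. The gene was not bare in iHoxc9: a domain of 258 bp lay upstream of its 5′ end, reaching 564 bp from it, and one of 690 bp lay within the gene. The EB domain lay 1850 to 2181 bp downstream of the 5′ end. No Dox was below progenitors at both genes, although it had more broad domains in all. Pax6, of the progenitor domains, was broad in progenitors (2761 bp) and no Dox (3002 bp) and had 613 to 739 bp in the other 4 lists. Nkx6-1, needed for motor neuron progenitors, had none in EB, 1231 bp in progenitors, 3187 bp in no Dox, 1819 bp in iHoxc6, 1442 bp in iHoxc9 and 1421 bp in iHoxc10, and Irx5 was broad in no Dox alone with 2891 bp.

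The Notch pathway and proneural genes had a like share, 9 of 17 or 52.9%, against 14.1% of all protein-coding genes. The receptor gene Notch1 had 4309 bp in progenitors and 4470 bp in no Dox, the 7th and 10th widest domains of these lists, and 878 bp in EB, 1067 bp in iHoxc6, 585 bp in iHoxc9 and 921 bp in iHoxc10. Hes1, the repressor it induces, had 2804 and 3415 bp in progenitors and no Dox and 423, 1259, 561 and 797 bp in EB, iHoxc6, iHoxc9 and iHoxc10. Both were thus broad in progenitors and no Dox only, and in EB and the 3 induced lists they stayed under the bound. The ligand gene Dll1 was different, with 839 bp in EB, 1926 bp in progenitors, 2687 bp in no Dox, 2364 bp in iHoxc6, 814 bp in iHoxc9 and 1863 bp in iHoxc10. The effectors Hey1 and Hey2 were widest in no Dox, at 1967 and 2589 bp.

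Of 22 motor neuron genes 7 were broad in some list (31.8%, against 14.1% of all protein-coding genes). All 7 were broad in no Dox, 1 in EB, 4 in progenitors, and 2, 1 and 2 in the iHoxc6, iHoxc9 and iHoxc10 lists. In that order they made up 31.8%, 4.55%, 18.2%, 9.09%, 4.55% and 9.09% of the 22. For all protein-coding genes the shares were 12.5%, 2.94%, 7.3%, 5.98%, 3.2% and 4.73%. The proneural factor gene Neurog2 had no domain at its start in EB, 2119 bp in progenitors, 3723 bp in no Dox, 2370 bp in iHoxc6, 2140 bp in iHoxc9 and 2121 bp in iHoxc10. It was broad in all 5 lists after EB. Onecut1 was broad in no Dox alone (2330 bp, with 345 to 1239 bp elsewhere), Foxp1, which is needed for limb motor neurons, in progenitors (2134 bp) and no Dox (2090 bp), and Ebf3 in EB (1962 bp), progenitors (1616 bp), no Dox (2086 bp) and iHoxc10 (1718 bp). Lmo4, a cofactor of LIM proteins, ran from 969 bp in EB to 1975 bp in no Dox, and was also broad in progenitors (1626 bp) and iHoxc6 (1546 bp). A TSS of these 22 genes lay in some domain for 18 in EB, 20 in progenitors, no Dox and iHoxc6, 16 in iHoxc9 and 18 in iHoxc10. That is 72.7% to 90.9%, above the 55.0% to 60.8% of all protein-coding genes, and iHoxc9 was the lowest list for both.

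The TALE genes, which encode the partners of Hox proteins on DNA, were broad in some list for 5 of 9. That is 55.6%, against 14.1% of all protein-coding genes. Meis1 was broad in no Dox alone, with 2917 bp there, 762 bp in progenitors and 173 to 689 bp elsewhere. Meis2 had 338 bp in EB, 2620 bp in progenitors, 2298 bp in no Dox, 2551 bp in iHoxc6, 509 bp in iHoxc9 and 864 bp in iHoxc10, with iHoxc9 and iHoxc10 on the side of EB. Pbx3 and Pknox1 were broad in progenitors, no Dox, iHoxc6 and iHoxc10, at 1870 to 2498 bp and 1645 to 2062 bp, and just under the bound in iHoxc9 with 1462 and 1424 bp. Of 18 RA response genes 5 were broad in some list (27.8%, beside the same 14.1%). They were Rarg, Rara, Rxra and Rxrb, which encode retinoid receptors, and their cofactor Nrip1, which was broad in all 6 lists at 1704 to 2150 bp. Rarg had 1940 bp in EB, 563 bp in progenitors, 2003 bp in no Dox, 1610 bp in iHoxc6, 521 bp in iHoxc9 and 1759 bp in iHoxc10.

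**Figure D4:**
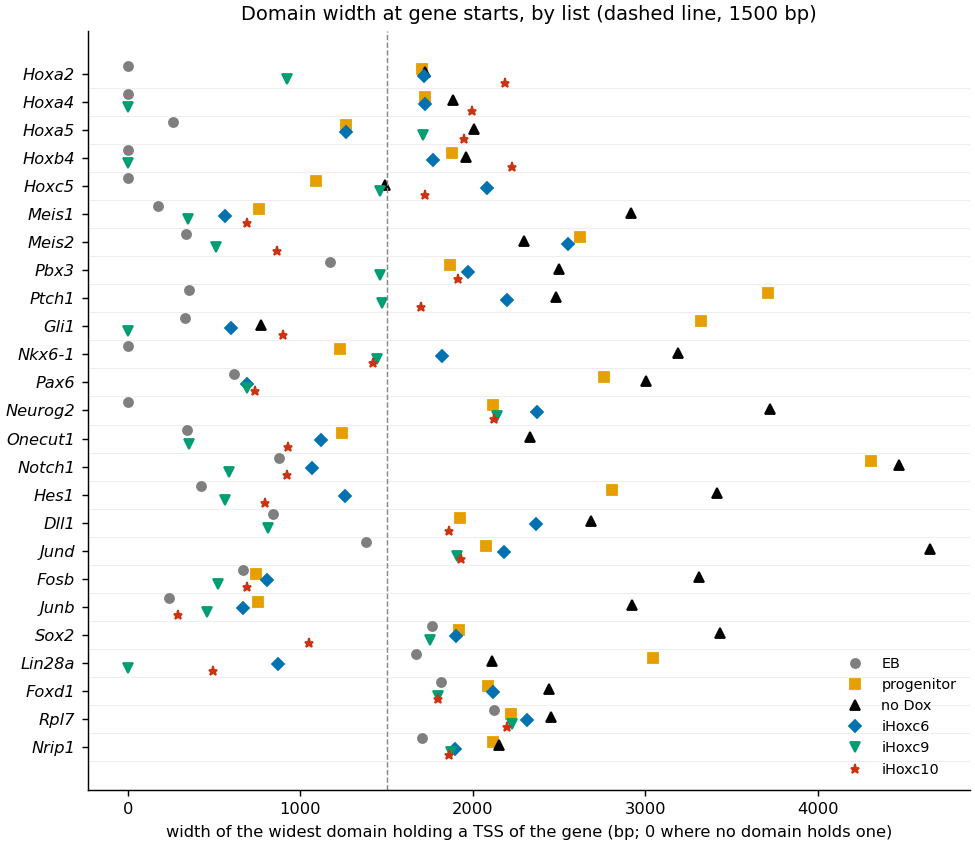
Width in bp of the widest domain that holds a TSS of each of 25 genes in each list (0 where no domain holds one); the dashed line marks 1500 bp. Gli1 and Ptch1 are widest in progenitors, Hoxa2, Hoxa4 and Hoxb4 in iHoxc10, and the immediate early genes Jund, Fosb and Junb stand far to the right in no Dox.

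Immediate early genes, which cells switch on within minutes of a stimulus, had the highest share of the 14 gene lists. Of 18, 13 were broad in some list (72.2%, against 14.1% of all protein-coding genes). These were 12 in no Dox, 2 in EB, 6 in progenitors, 5 in iHoxc6, 3 in iHoxc9 and 4 in iHoxc10. In that order they made up 66.7%, 11.1%, 33.3%, 27.8%, 16.7% and 22.2% of the 18. For all protein-coding genes the shares were 12.5%, 2.94%, 7.3%, 5.98%, 3.2% and 4.73%. Jund had 4647 bp in no Dox, the 7th widest domain of that list, 1382 bp in EB, 2075 bp in progenitors, 2181 bp in iHoxc6, 1910 bp in iHoxc9 and 1930 bp in iHoxc10. Fosb had 3312 bp in no Dox and 523 to 807 bp in the other 5 lists, and Junb 2921 bp against 239 to 752 bp. Both were broad in no Dox alone, at ranks 57 and 122 of that list. Fos (2069 bp in no Dox, 1565 bp in iHoxc6) and Egr1 (2557 bp in no Dox, 1270 to 2128 bp elsewhere) differed less. Of 25 pluripotency genes 5 were broad in some list (20%, against 14.1% of all protein-coding genes). Sox2, which neural progenitors keep, had 1761 bp in EB, 1918 bp in progenitors, 3432 bp in no Dox, 1900 bp in iHoxc6, 1750 bp in iHoxc9 and 1049 bp in iHoxc10. Lin28a, an RNA-binding protein gene that is lost with maturation, had 1668 bp in EB, 3046 bp in progenitors, 2112 bp in no Dox, 868 bp in iHoxc6, none in iHoxc9 and 493 bp in iHoxc10. Sall4 was broad in progenitors (2495 bp) and no Dox (2352 bp) and had 574 to 1437 bp elsewhere.

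The shares in the other gene lists ran from 4.76% to 25%, beside the 14.1% of all protein-coding genes. Some list was broad at 14 of 67 replication-dependent histone genes (20.9%), 52 of 365 genes named Zfp with a number (14.2%), 2 of 19 spinal interneuron genes (10.5%), 2 of 8 genes listed as neural crest markers (25%, Twist1 and Foxd1), 2 of 14 mesoderm and endoderm markers (14.3%) and 4 of 84 ribosomal protein genes (4.76%). The histone genes Hist1h3a and Hist1h4a share 1 domain, of 1809 bp in progenitors, 2418 bp in no Dox, 2013 bp in iHoxc6 and 1715 bp in iHoxc10. In EB and iHoxc9 both were under the bound, with unlike widths. Hist1h2bb and Hist1h3c also had equal widths, 2274 bp in progenitors and 2302 bp in no Dox. The 14 histone genes are therefore fewer domains than genes. Of markers of cells that these cultures could hold besides neural cells, Sox17, of endoderm, was broad in EB (2161 bp) and iHoxc6 (1946 bp), Foxa1, of endoderm and floor plate, in no Dox (1844 bp), and Twist1 in no Dox (1608 bp). Foxd1, in the neural crest list though not specific to crest, was broad in all 6 lists (1795 to 2444 bp). Ribosomal protein genes were open in nearly every case, with a domain at 80 to 82 of 84 in each list (95.2% to 97.6%, against 55.0% to 60.8% of all protein-coding genes), but Rpl7 was the only one broad in all 6 lists (2123 to 2450 bp).

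Some broad places changed shape as a whole between lists. At Marcks, whose protein links the membrane to actin, no Dox held a single domain of 5903 bp from 3116 bp upstream to 2787 bp downstream of the gene's 5′ end. The same stretch was in 3 main pieces in the other lists, among them 808 bp over the 5′ end and 1846 bp downstream of it in progenitors, and 1044 bp and 1833 bp in iHoxc6. At Gli1 it was the progenitor list that held 1 piece, from 127 bp upstream to 3193 bp downstream, where EB had 4 pieces and no Dox 5. Peg13, an imprinted non-coding RNA gene within Trappc9 on chromosome 15, was broad in no Dox (1894 bp), iHoxc6 (1876 bp) and iHoxc9 (1735 bp) and had no domain in EB, progenitors or iHoxc10. At the start of Grb10, another imprinted gene, the widths were 1648 bp in EB, 1317 bp in progenitors, 98 bp in no Dox, 63 bp in iHoxc6, 670 bp in iHoxc9 and 657 bp in iHoxc10. In introns of Def8 on chromosome 8, a pair of places at 123426255 to 123430575 and 123430919 to 123434085 had domains of 4318 and 3163 bp in no Dox and 4319 and 3157 bp in iHoxc6, both of the Ainv15(iFlag.Hoxc6) line. EB and progenitors, of the Ainv15(iCre) line, had up to 2382 and 2252 bp in the first place and 690 and 2054 bp in the second. In iHoxc9 and iHoxc10 there was 1 domain each, of 33 and 34 bp. The second of these places aligned to 9 further places of the genome over 500 bp or more at 90% identity or more, and the first to 1, so reads there could come from elsewhere.

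**Figure D5:**
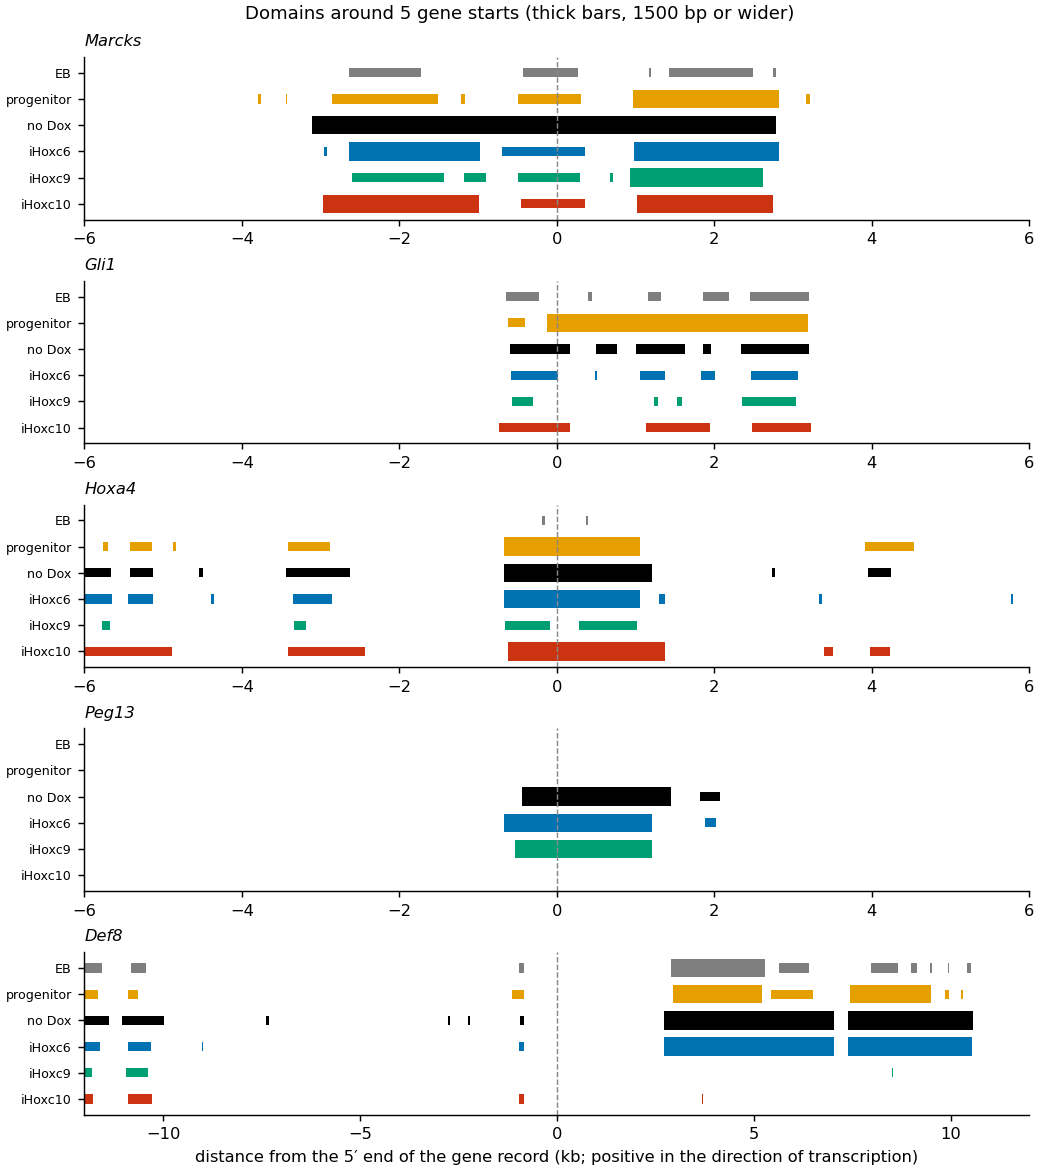
Domains of each list around the 5′ ends of Marcks, Gli1, Hoxa4, Peg13 and Def8, drawn to scale in kb along the direction of transcription; thick bars are domains of 1500 bp or more and thin bars narrower ones. Marcks is in 1 piece in no Dox only, the Gli1 stretch in progenitors only, and the paired stretches in Def8 are bare but for 1 short domain each in iHoxc9 and iHoxc10.

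Several of the widest domains lay on sequence that has copies elsewhere, where the number of reads depends on how repeated sequence was mapped. The place at 39842974 to 39848848 on chromosome 17, which holds the ribosomal RNA gene CT010467.1 and the non-coding genes Gm42418 and AY036118, was covered by a single domain of 5853 to 5872 bp in all 6 lists. On chromosome 1, 24611528 to 24616203 was covered by a domain of 4608 to 4674 bp in all 6 lists, and 99.5% of it aligned to the mitochondrial genome at 99.9% identity. At 2999991 to 3008907 on chromosome 9, 96.8% repeat masked, the domain was 8917 bp in progenitors, 8814 bp in no Dox and 5352 bp in iHoxc9, while EB, iHoxc6 and iHoxc10 had one over 10000 bp that the width rule leaves out. In an intron of the non-coding gene 2700054A10Rik on chromosome 17, 13550669 to 13553178, which is 97.8% repeat masked and has 206 further alignments, a domain of 2510 bp was present in no Dox and none over 69 bp in any other list. More than 50% of the bases were repeat masked at 19 of the 3198 places, 17 of them off promoters. Masking does not find all sequence with copies, since it was 4.51% at the ribosomal place and 6.52% at the mitochondrial-like one. Copies were sought only for the 52 places named by the rules, of which 43 had no further alignment and 9 had at least 1. How many of the 3198 places have copies was not counted.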

How the data were processed

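ATAC-seq libraries of 12 samples were analysed from 6 deposited lists of accessible domains, 1 per group. The authors aligned the reads to mm10 with Bowtie2 (2.2.2 in the submitters' processing notes, which also name Picard 2.8.2) and ran DomainFinder on the pooled samples of a group. The deposited lists give positions only, without height or read count. Positions are printed as 1-based from starts taken to be 0-based, which no source states, and could be off by 1 bp. Domains on unplaced sequences (15 to 20 broad ones in each list) and the mitochondrion were not used.

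Broad domains of the 6 lists that overlapped by 1 bp or more were merged. Genes, exons and TSS were taken from GENCODE M21, sequence and repeat masking from GRCm38.p6. A gene was called broad where a broad domain held a TSS of one of its protein-coding transcripts. Base composition was computed over whole domains. Copies of the named places were sought with BLAST 2.17.0 (alignments of 500 bp or more at 90% identity or more). Python 3.11.15, NumPy 2.4.6, SciPy 1.17.1, pysam 0.24.0 and matplotlib 3.10.9 were used, and the interval code was tested on simulated data.

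The domains, gene lists and rules were chosen with earlier results of these data known. Named were the 3 widest domains of each list, the 10 widest places broad in all 6, the 3 widest broad in 1 list only, up to 5 without a domain per list, all broad Hox genes, up to 5 genes of each other list, the 3 largest and smallest ratios of covered length between groups, and the domains nearest to the bound; of these, those that bear on a description are printed. The pieces around Marcks, Gli1, Hoxa4, Peg13 and Def8 were described after their widths had been seen. No test was run, since the design gives 1 list per group. Alternatives varied the bound, merged close domains, took equal numbers, left out repeats or no Dox, or changed the overlap and the TSS.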

Additional observations from a re-analysis of the deposited data

Results flagged for a closer look

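Outside the chromosomes used, 5 of the 6 lists held a domain over the mitochondrial genome, of 16274 bp in each, and the no Dox control list held none.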

How the results depend on the processing

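Merging close domains first (gaps under the smallest of most lists), or leaving out repeat-masked domains, moved no count by over 1.5 times and no share beyond its interval. A minimum width of 1000 bp gave 29414 broad domains, 9352 places, 1773 broad in all 6 lists, 2832 broad in 1 list, 91.1% with a domain in every list, 76.8% on a TSS and 7879 genes. With 2000 bp these were 2093, 975, 52, 482, 98.97%, 87.4% and 977. With the 637 widest domains of each list they were 3822, 1495, 148, 592, 98.1%, 87.8% and 1488. Without the no Dox list, 850 places were broad in 1 list. Requiring at least 50% of a place to be covered gave 64.4% with a domain in every list, and counting only the 5′ end of the gene record gave 76.8% on a TSS. Of 45 alternative values of the main counts and shares, 21 stayed within these limits. Leaving out a replicate was not possible, because each list was made from both samples. No paired analysis was possible because the result comes from no test. Depth is unknown, so whether a narrower or missing domain reflects fewer reads was not tested.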
